A study of Rattus norvegicus with 8 samples.

Results

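This section describes the neurotrophic factors of the dopaminergic system and their receptors in the *substantia nigra* (SN) of rats that received an α-synuclein vector. The genes are *Gdnf*, *Nrtn*, *Bdnf*, *Cdnf* and *Manf*, which encode secreted factors, and *Ret*, *Gfra1*, *Gfra2*, *Ntrk2* and *Ngfr*, which encode receptors. They were chosen by name, and their probes were found through the RefSeq accession that the array gives for each probe. Of the 10 genes, 9 had a probe, out of 16678 genes that the accessions name on the array. *Manf* was not analysed here, because its accession in the table of names is not on the array. The 9 genes carry 18 probes out of 45598.

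Adult female Sprague Dawley rats, 3 months old at surgery, received a unilateral intranigral injection of an AAV6 vector, and the ipsilateral SN was microdissected 20 weeks later. In the AAV-αSyn group the vector carried human α-synuclein in its wild-type form, and in the AAV-Null group it was a null control. The groups hold 4 arrays each by the labels, whereas the methods state fewer biological replicates, so whether every array is a separate animal is not settled and the p-values measure the spread between arrays. According to the methods, the α-synuclein vector was given at 5.2e10 vg/µL and the null vector at 5.3e9 vg/µL, so transgene and titre cannot be told apart. The injection reaches a region and not a cell type, and the dissected tissue holds all cells of that region.

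GDNF and neurturin (the product of *Nrtn*) bind the membrane-anchored co-receptors GFRα1 and GFRα2, and the complex activates the receptor tyrosine kinase RET, which midbrain dopaminergic (DA) neurons carry. BDNF acts through the receptor tyrosine kinase TrkB, the product of *Ntrk2*, while the p75 neurotrophin receptor, the product of *Ngfr*, binds all neurotrophins and their precursors. CDNF and MANF form a separate family of small proteins that are largely held in the endoplasmic reticulum (ER) and are best known for protecting DA neurons under ER stress.

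RNA was labelled with Cy3 and each sample was hybridised to its own array, all 8 on 1 slide. On each array, 74.8% to 77.5% of spots were well above background. Levels are quantile-normalised log2 intensities, and the groups were compared with limma over 33853 probes. These levels depend on the probe, so they are compared between arrays and never between genes. Lists of marker genes, expressed as the mean of log2 levels centred on each gene's mean over the 8 arrays, checked the tissue. All 11 dopaminergic genes tested had negative log2 fold changes and 5 (45.5%) had an unadjusted p under 0.05 in limma's test. Among all genes, each by its brightest probe, 5.51% had one, 3.46% higher and 2.05% lower in AAV-αSyn. The mean of the dopaminergic genes ranged from 0.0079 to 0.42 in AAV-Null and from −0.37 to −0.023 in AAV-αSyn, without overlap. All 6 genes of serotonergic neurons, a population of the neighbouring raphe nuclei, had positive log2 fold changes. Of these, 3 (50%, against 3.46% of all genes) were higher at an unadjusted p under 0.05. The mean of the 6 was −1.19, −0.91, 0.62 and −0.72 in AAV-Null (replicates 1 to 4) against 0.30, 0.85, 0.08 and 0.97 in AAV-αSyn (replicates 1 to 4). *Fev*, 1 of the 6, was above background on only 1 AAV-Null and 3 AAV-αSyn arrays, so levels under that limit enter this mean. For the serotonergic genes AAV-Null replicate 3 thus stood with the AAV-αSyn arrays, whereas its dopaminergic mean of 0.32 lay with AAV-Null. The mean of the 4 thalamic genes was −0.45, 0.53, 1.06 and 0.39 in AAV-Null (replicates 1 to 4), highest on replicate 3, and ranged from −0.69 to −0.10 in AAV-αSyn. Of the 4 hindbrain genes tested, the glycine transporter gene *Slc6a5* was above background on all 8 arrays, with a log2 fold change of 1.28 (limma, adjusted p = 0.0424), a call that was lost with the replicate number as a block, where 0 probes passed. *Hoxa2*, above background on 3 AAV-Null and 4 AAV-αSyn arrays, had 0.86 (exact permutation p = 0.0286), and neither gene overlapped between the groups. However, *Dbh* and *Hoxb3* were above background on 0 AAV-Null arrays and entered the test only through AAV-αSyn arrays. Their tests are therefore not counted, and the mean of this list is not given. In bulk tissue, fewer cells of a type and less RNA per cell cannot be told apart. The part that the makeup of the dissected tissue had in the results below was not tested.

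No probe of the 9 genes passed the Benjamini–Hochberg adjustment over all probes, with adjusted p-values from limma between 0.747 and 0.9996. By comparison, 5 probes of the whole array passed it (0.0148%). In limma's test 2 of the 18 probes had an unadjusted p under 0.05, 1 of them higher (*Gdnf*) and 1 lower (*Nrtn*) in the AAV-αSyn group. The share among all probes tested was 5.64%, with 3.31% higher and 2.32% lower. The *Gdnf* probe entered the test only through 2 AAV-αSyn arrays, and its values in AAV-Null are below background. Among probes above background on all 8 arrays, 1 of the 16 of these genes (*Nrtn*) and 1730 of 29656 in all had an unadjusted p under 0.05. Without AAV-Null replicate 3, 5 of the 18 probes and 2742 of 33677 probes in all had an unadjusted p under 0.05. The arrays of the groups did not overlap for 1 of the 18 probes, that of *Nrtn*, which was lower, and for 0 probes in the other direction. Among all probes 3.83% did not overlap, 2.57% higher and 1.26% lower. Of the 18 log2 fold changes, 10 were positive and 8 negative. Their median was 0.0086 and that of all probes tested 0.0083, and their median size regardless of sign was 0.094 against 0.097.

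**Figure D1:**
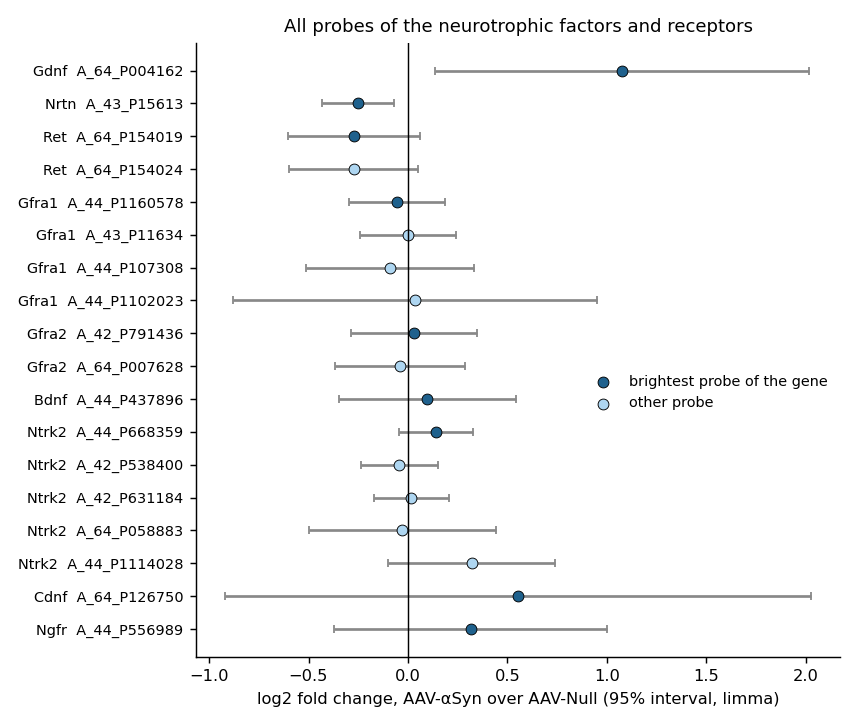
Log2 fold change (AAV-αSyn over AAV-Null) of each of the 18 probes on the horizontal axis, with its 95% interval from limma, grouped by gene on the vertical axis; dark points are the brightest probe of a gene and pale points its other probes. The intervals of the *Gdnf* and *Nrtn* probes lie on 1 side of 0, and the other 16 span 0. The *Gdnf* probe was not above background on any AAV-Null array.

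*Gdnf* and *Ret*, a ligand and its signalling receptor, are among the genes on which the results below turn, so the 250 bases that precede their annotated starts are shown to give the sequence context of each. The window given for *Nrtn* lies inside the annotated gene and is not shown. They were taken from RefSeq on the assembly GRCr8, are written 5′ to 3′ in the direction of the gene and end at the base before the start. The regions are chr2:58621077-58621326 on the plus strand for *Gdnf* and chr4:153040557-153040806 on the minus strand for *Ret*. Capitals mark matches, on either strand, to the CRE core CGTCA, the full CRE TGACGTCA (which contains the core), the TATA box TATAAA, the CCAAT box CCAAT and the NBRE AAAGGTCA, the element that the dopaminergic factor Nurr1 binds.
Gdnf: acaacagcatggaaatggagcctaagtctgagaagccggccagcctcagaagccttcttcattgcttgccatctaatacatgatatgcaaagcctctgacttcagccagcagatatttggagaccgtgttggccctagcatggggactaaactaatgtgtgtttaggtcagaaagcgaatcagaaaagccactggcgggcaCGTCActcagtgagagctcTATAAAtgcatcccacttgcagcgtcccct
Ret: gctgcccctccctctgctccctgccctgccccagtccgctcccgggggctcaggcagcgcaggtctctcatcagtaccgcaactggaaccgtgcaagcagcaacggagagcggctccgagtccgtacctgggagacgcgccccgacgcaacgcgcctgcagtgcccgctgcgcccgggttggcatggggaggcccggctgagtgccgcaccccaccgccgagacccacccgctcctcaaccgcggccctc
The *Gdnf* window held a CRE core 49 to 45 bases and a TATA box 30 to 25 bases before the start, whereas the *Ret* window held none of these words. Among 33469 rat windows of this length, 18.2% held the CRE core, 1.59% the full CRE, 12.9% the TATA box, 34.0% the CCAAT box and 1.24% the NBRE. The G and C content was 49.6% for *Gdnf* and 72.8% for *Ret*, with 6 and 25 CpG dinucleotides, respectively. These matches are descriptions of letters only.

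**Figure D2:**
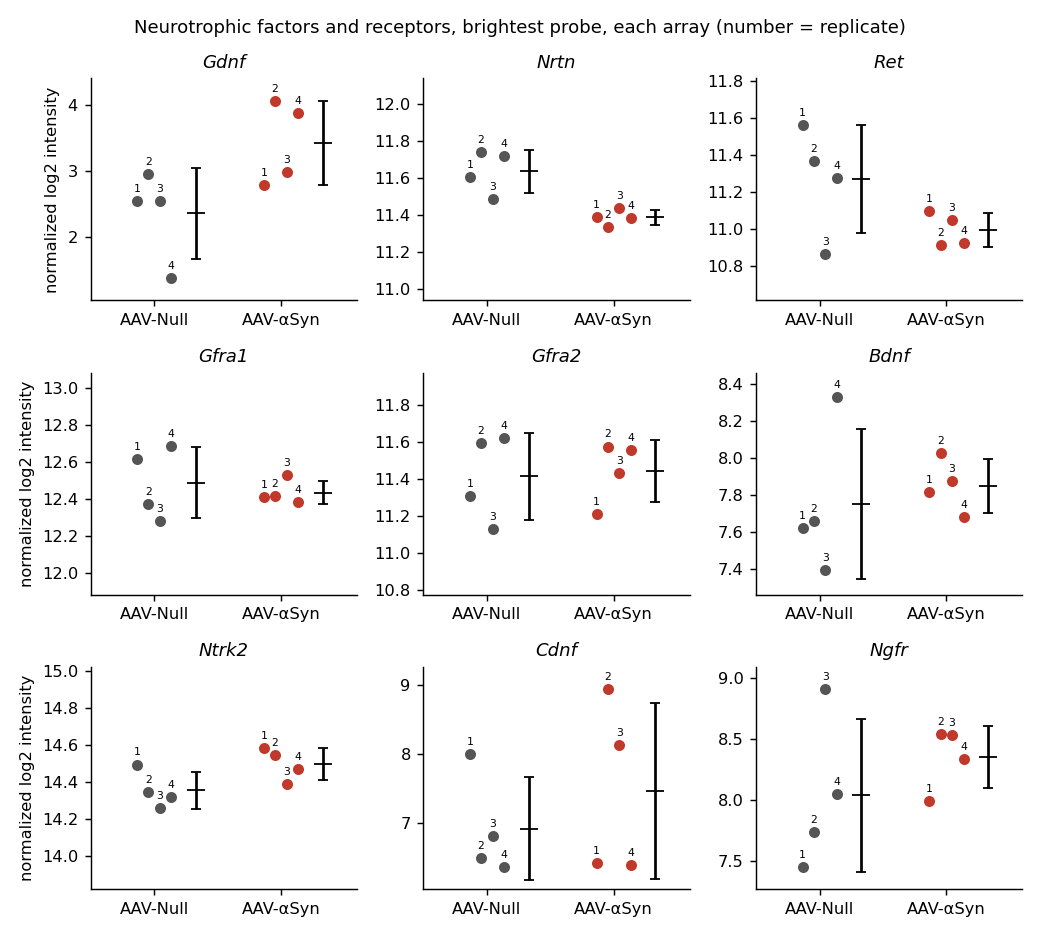
Normalised log2 intensity (vertical axes, each with its own range) of the brightest probe of each gene on every array, by group; the number is the replicate and the bar is the mean ± SD of 4 arrays. *Nrtn* is the gene whose groups do not overlap, with AAV-αSyn at 11.34 to 11.44 below AAV-Null at 11.49 to 11.74; *Gdnf* values of AAV-Null, 1.37 to 2.96, are all below the background threshold.

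Among the ligands, *Nrtn*, which encodes neurturin, the GDNF relative that binds preferentially to GFRα2, differed most clearly from its spread. The *Nrtn* probe (A_43_P15613, NM_053399) had log2 intensities of 11.60, 11.74, 11.49 and 11.72 in AAV-Null (replicates 1 to 4) against 11.39, 11.34, 11.44 and 11.38 in AAV-αSyn (replicates 1 to 4). Every AAV-αSyn array was below every AAV-Null array, and the gap between the nearest of them was small beside the range of the AAV-Null group. AAV-Null averaged 11.64 ± 0.12 (SD, n = 4) and AAV-αSyn 11.39 ± 0.042 (SD, n = 4), which gives −0.25 as the log2 fold change (standard error 0.079, 95% interval −0.43 to −0.07). Limma gave p = 0.0129 unadjusted and 0.747 adjusted, and the two-sided exact permutation p was 0.0286, the smallest possible with 4 arrays in each group. On the linear scale this is a difference of −15.9%. The difference was negative within both columns of the slide, at −0.31 and −0.19. The unadjusted p of *Nrtn* stayed under 0.05 without any 1 of the 8 arrays, with log2 fold changes between −0.30 and −0.22. *Nrtn* also varied inversely with the cholinergic genes (Pearson r = −0.81, exact permutation p = 0.00533) and the serotonergic genes (Pearson r = −0.87, exact permutation p = 0.0100) over the arrays. Over the 126 relations between a gene and a marker list, the adjusted p-values of these exact tests were 0.224 and 0.316. The Spearman rho was −0.74 and −0.83 (exact permutation p = 0.0458 and 0.0154, adjusted 0.481 and 0.457), and r was −0.74 and −0.87 without the 2 arrays farthest from the median of each marker mean. *Nrtn* and both marker means differed between the groups, and with the group means taken out r was −0.66 and −0.73.

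*Gdnf*, which encodes the founding member of the family, lay at the limit of detection. The *Gdnf* probe (A_64_P004162, NM_019139) was not well above background on any of the 4 AAV-Null arrays and was above it on 2 of the 4 AAV-αSyn arrays, replicates 2 and 4. Its log2 intensities were 2.54, 2.96, 2.54 and 1.37 in AAV-Null (replicates 1 to 4) against 2.78, 4.07, 2.98 and 3.88 in AAV-αSyn (replicates 1 to 4). Replicates 2 and 4 of AAV-αSyn stood above the rest, and replicates 1 and 3 lay within or beside the AAV-Null range. The lowest log2 signals that counted as well above background were 3.299 to 3.62 in AAV-Null, so those *Gdnf* levels are known only as lying under this limit. Set against that limit the AAV-αSyn mean of 3.43 gave a ratio under 1, so no fold is stated. The AAV-Null mean of the measured values was 2.35, and limma's adjusted p for the probe was 0.835 (exact permutation test, two-sided, p = 0.0571). Its unadjusted p under 0.05 in limma compares values below background. That call was lost with normexp background correction, with array weights, and without AAV-Null replicate 4, AAV-αSyn replicate 2 or AAV-αSyn replicate 4. *Gdnf* was not tested where a probe had to be above background on at least 4 arrays.

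*Bdnf*, which encodes the neurotrophin that signals through TrkB, had log2 intensities of 7.62, 7.66, 7.39 and 8.33 in AAV-Null (replicates 1 to 4) against 7.81, 8.03, 7.87 and 7.68 in AAV-αSyn (replicates 1 to 4). The AAV-αSyn arrays lay inside the range of the AAV-Null arrays, whose replicate 4 was the highest of all. For *Bdnf* the log2 fold change was 0.098 (standard error 0.19, 95% interval −0.35 to 0.54, limma's p = 0.625, exact permutation p = 0.714). Without AAV-Null replicate 4 it was 0.29 with an unadjusted p under 0.05 (limma, adjusted p = 0.585), and without AAV-Null replicate 3 it was −0.023, so single AAV-Null arrays set its size and sign.

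*Cdnf*, which encodes a mainly ER-resident factor, varied most between arrays. Its log2 intensities were 8.0, 6.48, 6.80 and 6.36 in AAV-Null (replicates 1 to 4) against 6.41, 8.94, 8.13 and 6.39 in AAV-αSyn (replicates 1 to 4). Replicates 2 and 3 of AAV-αSyn and replicate 1 of AAV-Null were high, and the other 5 arrays lay between 6.36 and 6.80. Both groups thus held high and low arrays. For *Cdnf* the log2 fold change was 0.55 (standard error 0.64, 95% interval −0.92 to 2.03, limma's p = 0.411, exact permutation p = 0.486), and the interval is the widest among the 18 probes. Without AAV-αSyn replicate 2 the *Cdnf* value was 0.062 and without replicate 3 of that group 0.33, while it was 0.92 without AAV-Null replicate 1 or AAV-αSyn replicate 4, 0.90 without AAV-αSyn replicate 1 and 0.37 without AAV-Null replicate 4.

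*Ret*, the signalling receptor shared by GDNF and neurturin, was measured by 2 probes. The brighter *Ret* probe (A_64_P154019, NM_012643) had log2 intensities of 11.56, 11.37, 10.87 and 11.28 in AAV-Null (replicates 1 to 4) against 11.10, 10.91, 11.05 and 10.93 in AAV-αSyn (replicates 1 to 4). AAV-Null replicates 1, 2 and 4 were above all AAV-αSyn arrays, whereas AAV-Null replicate 3 was the lowest array of all. AAV-Null averaged 11.27 ± 0.29 (SD, n = 4) and AAV-αSyn 11.00 ± 0.091 (SD, n = 4), which puts the log2 fold change at −0.27 (standard error 0.14, 95% interval −0.60 to 0.06). Limma gave p = 0.0948 unadjusted and 0.926 adjusted, and the two-sided exact permutation p was 0.171. The other *Ret* probe (A_64_P154024, NM_001110099) gave a log2 fold change close to that, at −0.27 (standard error 0.14, limma's p = 0.0863, exact permutation p = 0.114), and the *Ret* probes varied together over the 8 arrays (Pearson r = 0.87, as a description). At that probe AAV-Null replicate 3, at 9.24, was not the lowest array. AAV-αSyn replicates 2, 3 and 4 lay below it, at 9.06, 9.18 and 9.22. Without AAV-Null replicate 3 the brighter probe had a log2 fold change of −0.41 (limma, adjusted p = 0.470), and with arrays weighted by quality −0.39 (adjusted p = 0.189), both with an unadjusted p under 0.05. Without AAV-Null replicate 1, the highest array, the *Ret* probes had smaller log2 fold changes of −0.17 and −0.15, with limma's unadjusted p at 0.237 and 0.196. The size for *Ret* therefore depended on both AAV-Null arrays, of which replicate 3 is the one with the high serotonergic markers.

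Over the 8 arrays the brighter *Ret* probe varied inversely with the mean of the serotonergic genes (Pearson r = −0.96, exact permutation p = 0.000422; Spearman rho = −0.88, exact permutation p = 0.00724). Adjusted over the 126 relations between 9 genes and 14 marker lists, these p-values were 0.0531 and 0.456. Without the 2 arrays farthest from the median of the marker mean, AAV-Null replicates 1 and 2, r was −0.93, and with the group means taken out it was −0.95. With the dopaminergic genes the correlation of *Ret* was 0.48 over all arrays, and with the group means taken out it was 0.00056. With the thalamic genes it was −0.08 over all arrays and −0.81 with the group means taken out.

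*Ngfr*, which encodes the p75 neurotrophin receptor, had log2 intensities of 7.45, 7.74, 8.91 and 8.05 in AAV-Null (replicates 1 to 4) against 7.99, 8.54, 8.53 and 8.33 in AAV-αSyn (replicates 1 to 4). AAV-Null replicate 3 was the highest array of all, while AAV-Null replicates 1 and 2 were the lowest. For *Ngfr* the log2 fold change was 0.31 (standard error 0.30, 95% interval −0.37 to 0.999, limma's p = 0.321, exact permutation p = 0.429). Without AAV-Null replicate 3 it was 0.61 (limma, adjusted p = 0.539), and with array weights 0.65 (adjusted p = 0.231), both with an unadjusted p under 0.05. Without AAV-Null replicate 1, the lowest array, the *Ngfr* value was 0.12, with limma's unadjusted p at 0.685. At their brightest probes *Ngfr* and *Ret* varied inversely over the arrays. Their Pearson r was −0.92 (exact permutation p = 0.000992) and their Spearman rho −0.95 (exact permutation p = 0.00114), with p = 0.0357 and 0.0411 after adjustment over the 36 pairs of the 9 genes. Without AAV-Null replicates 1 and 3 r was −0.85, and with the group means taken out it was −0.95. The other *Ret* probe was not tested against *Ngfr* or the serotonergic genes. *Ngfr* and the mean of the serotonergic genes had r = 0.81 (exact permutation p = 0.0199, adjusted p = 0.409), and r was 0.50 without AAV-Null replicates 1 and 2 and 0.84 with the group means taken out. With the thalamic genes r for *Ngfr* was 0.33 over all arrays and 0.83 with the group means taken out. These relations were picked out after all pairs had been computed, and the arrays share 1 slide and 1 normalisation.

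**Figure D3:**
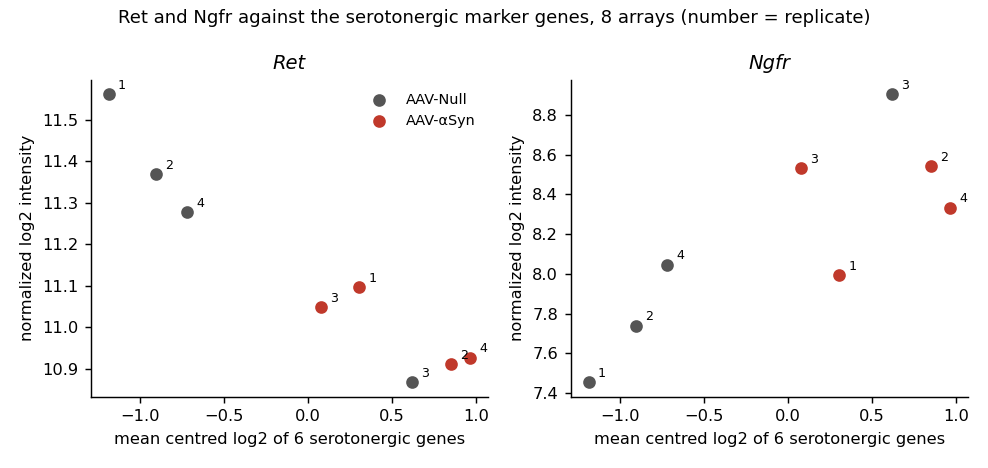
Normalised log2 intensity of the brightest probe of *Ret* (left) and *Ngfr* (right) on the vertical axes against the mean centred log2 level of the 6 serotonergic genes on the horizontal axes. Each point is an array, coloured by group and numbered by replicate. AAV-Null replicate 3, at 0.62 on the horizontal axes, has the lowest *Ret* (10.87) and the highest *Ngfr* (8.91), and lies among or beside the AAV-αSyn arrays and apart from the other AAV-Null arrays.

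The co-receptors showed no difference beyond the spread of the arrays. *Gfra1*, which encodes the preferred co-receptor of GDNF, had log2 intensities of 12.61, 12.37, 12.28 and 12.68 in AAV-Null (replicates 1 to 4) against 12.41, 12.42, 12.53 and 12.38 in AAV-αSyn (replicates 1 to 4) at its brightest probe (A_44_P1160578, NM_012959). The AAV-αSyn arrays lay within the AAV-Null range, and the log2 fold change was −0.05 (standard error 0.10, 95% interval −0.29 to 0.19, limma's p = 0.624, exact permutation p = 0.629). The other *Gfra1* probes for NM_012959 had log2 fold changes of 0.00023 and −0.09. The remaining *Gfra1* probe (A_44_P1102023, XM_008760512) was above background only on replicate 3 of each group. The brightest *Gfra1* probe was lower where the GABAergic genes were higher (Pearson r = −0.85, exact permutation p = 0.00114, adjusted p = 0.0719 over the same 126 relations), and r was −0.74 without AAV-Null replicates 3 and 4. The Spearman rho was −0.81 (exact permutation p = 0.0218, adjusted p = 0.457). Over the arrays this probe followed the one at 0.00023 (Pearson r = 0.97) but not the one at −0.09 (r = −0.11), as a description. The other *Gfra1* probes were not tested against the GABAergic genes.

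*Gfra2*, which encodes the preferred co-receptor of neurturin, had log2 intensities of 11.31, 11.59, 11.13 and 11.62 in AAV-Null (replicates 1 to 4) against 11.21, 11.57, 11.43 and 11.55 in AAV-αSyn (replicates 1 to 4). The groups lay over each other. The log2 fold change of *Gfra2* was 0.03 (standard error 0.14, 95% interval −0.29 to 0.35, limma's p = 0.832, exact permutation p = 0.857), and its other probe gave −0.042 (exact permutation p = 0.800). Its sign depended on the array weights, on averaging the probes and on 4 of the 8 arrays.

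*Ntrk2*, which encodes TrkB, had 5 probes for 3 accessions, and they did not move together. The brightest (A_44_P668359, NM_001163168, 10 spots) had log2 intensities of 14.50, 14.35, 14.26 and 14.32 in AAV-Null (replicates 1 to 4) against 14.58, 14.54, 14.39 and 14.47 in AAV-αSyn (replicates 1 to 4). The AAV-αSyn array was the higher in all 4 rows of the slide, although the groups overlapped. At this *Ntrk2* probe the log2 fold change was 0.14 (standard error 0.081, 95% interval −0.05 to 0.33, limma's p = 0.119, exact permutation p = 0.0857). The probe varied inversely with the thalamic genes (Pearson r = −0.83, exact permutation p = 0.0128, adjusted 0.323; Spearman rho = −0.74, exact permutation p = 0.0458, adjusted 0.481), and r was −0.64 without AAV-Null replicates 2 and 3. With the group means taken out r was −0.69. Another *Ntrk2* probe with 10 spots (A_42_P538400, NM_012731) had log2 intensities of 13.53, 13.55, 13.53 and 13.54 in AAV-Null (replicates 1 to 4) against 13.30, 13.49, 13.54 and 13.64 in AAV-αSyn (replicates 1 to 4). The AAV-Null arrays were nearly equal at this probe, with an SD of 0.0083, and the AAV-αSyn arrays lay on either side of them, with an SD of 0.14 and a log2 fold change of −0.044 (exact permutation p = 0.686).

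The first of these *Ntrk2* probes minus the second was 0.97, 0.80, 0.73 and 0.78 in AAV-Null (replicates 1 to 4) against 1.28, 1.05, 0.85 and 0.84 in AAV-αSyn (replicates 1 to 4), on the log2 scale. The means differed by 0.19 (exact permutation test, two-sided, p = 0.171), and this pair was chosen after its values were seen. Feature Extraction marked 8 spots of the second probe as outliers over the 8 arrays, 3 of them on AAV-αSyn replicate 1, where its level was lowest. The remaining *Ntrk2* probes had log2 fold changes of 0.017, −0.028 and 0.32, with exact permutation p-values of 0.857, 0.971 and 0.171. The last of these (A_44_P1114028, XM_006253507) was at 0.45 with an unadjusted p under 0.05 without AAV-αSyn replicate 2 (limma, adjusted p = 0.9999) and at 0.19 without AAV-Null replicate 4. Which transcripts of *Ntrk2* each probe detects was not established here.

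Of the 13648 genes with a probe tested, those that followed each member's brightest probe most closely over the 8 arrays were named as a description. Every tested probe of a gene with a value on all arrays was compared, and the closest stood for the gene. For *Nrtn* they were *Myot* (Pearson r = 0.97), *Kctd16* (0.95) and *Tmem200a* (0.93), and for *Ret* they were *Angpt1* (0.997), *Rps19l3* (0.98) and *Gcnt2* (0.98). *Angpt1*, which encodes angiopoietin 1, had a log2 fold change of −0.27, the same as *Ret*. For *Gdnf*, with most of its levels under the limit of detection, they were *Pbx3* (0.97), *Cfl2* (0.96) and *Mettl24* (0.95). For *Ngfr* the closest was *Kif3c* (0.98), for *Ntrk2* *Rest* (0.99), for *Bdnf* *Nup62* (0.97), for *Gfra1* *Pnma1* (0.95), for *Gfra2* *Araf* (0.98) and for *Cdnf* *Foxp3* (0.99). They are the highest values among the probes of that many genes over 8 arrays, which share 1 slide and normalisation.

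The other genes of the pathway were described in 6 lists by the brightest probe of each gene. None of their genes passed the adjustment (0.022% of all genes did), and an unadjusted p under 0.05 held for 5.51% of all genes, 3.46% higher and 2.05% lower, with a median log2 fold change of 0.02. Of 20 other genes tested that encode GDNF family or neurotrophin ligands, their receptors or proteins that interact with these, none reached an unadjusted p of 0.05 in limma's test and their median was −0.03. The smallest p was that of *Bex3*, which encodes a protein that interacts with p75, with a log2 fold change of 0.16 (limma's p = 0.129, exact permutation p = 0.143). *Ntrk3*, which encodes the neurotrophin-3 receptor TrkC, was at 0.17 on the same scale (standard error 0.12).

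Of 36 adaptors and effectors of RET and the Trk receptors tested, 2 had a higher and 1 a lower level at an unadjusted p under 0.05 (8.33%), with a median of 0.02. *Sos1*, the exchange factor that links the receptors to RAS, was at 10.94 ± 0.088 (SD, n = 4) in AAV-Null and 11.16 ± 0.034 (SD, n = 4) in AAV-αSyn, with no overlap of the arrays. Its log2 fold change was 0.21 (limma's p = 0.0175, adjusted p = 0.764, exact permutation p = 0.0286). The log2 fold change of the adaptor *Frs3* was 0.24 (exact permutation p = 0.0857) and that of the neuronal adaptor *Shc3* −0.36 (exact permutation p = 0.0571), both with overlapping groups.

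Of 17 genes that receptor tyrosine kinase and MAPK signalling induces, 3 were higher and 0 lower at an unadjusted p under 0.05 (17.6%), while the median of the list was −0.05. *Spry4*, a feedback inhibitor of the pathway, had a log2 fold change of 0.40 (limma, adjusted p = 0.747, exact permutation p = 0.0286) and its groups did not overlap. *Spry2*, of the same family, had 0.28 (exact permutation p = 0.0571), and the immediate early gene *Fos* had 0.70 (exact permutation p = 0.0857), both with overlapping groups. The other 14 genes did not reach an unadjusted p of 0.05.

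Of 21 ER stress genes that are induced together with *Manf*, 2 were higher and 0 lower at an unadjusted p under 0.05 (9.52%), with a median of 0.06. *Hyou1*, an ER chaperone, was at 0.16 on this scale (exact permutation p = 0.0286) without overlap, and the stress-response factor *Atf3* had 0.41 (exact permutation p = 0.0857) with overlap. *Hspa5*, the main ER chaperone, had 0.094 (exact permutation p = 0.171). Of 11 genes for the processing and clearance of pro-BDNF tested, *Pcsk5*, a proprotein convertase, was higher with a log2 fold change of 0.25 (exact permutation p = 0.0286) without overlap, and 10 did not reach an unadjusted p of 0.05.

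Of 21 other growth factors and receptors that act on DA neurons, 1 reached an unadjusted p of 0.05 (4.76%). *Vegfa*, which encodes the vascular endothelial growth factor, was at 12.59 ± 0.089 (SD, n = 4) in AAV-Null and 12.92 ± 0.069 (SD, n = 4) in AAV-αSyn, and the groups did not overlap. Its log2 fold change was 0.33 (standard error 0.076, limma's p = 0.00215, adjusted p = 0.6003, exact permutation p = 0.0286).

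**Figure D4:**
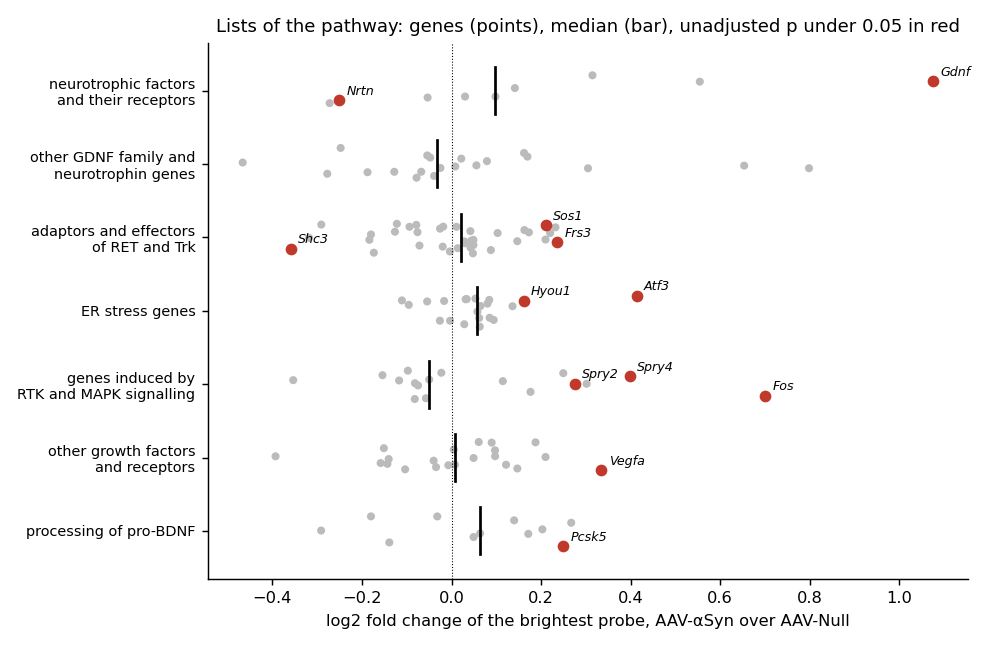
Log2 fold change (AAV-αSyn over AAV-Null, horizontal axis) of the brightest probe of each gene in the neurotrophic genes and 6 related lists (vertical axis); points are genes, bars are list medians and red points, which are named, have an unadjusted p under 0.05. Most genes lie near 0, the medians of the 6 lists lie between −0.05 and 0.06, and the *Gdnf* value compares levels at or under background.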

How the data were processed

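Scanner files of 8 arrays were used. The authors deposited spot intensity values corrected for background within the array by Agilent Feature Extraction (11.5.1.1 per the labels, 12.0.3.2 per the file headers), and a matrix of log2 values that the authors had quantile normalised. Processed intensities were taken to log2 without control and outlier spots, in R 4.3.3 with limma (version 3.58.1), statmod (version 1.5.0) and data.table (version 1.17.8). A probe was tested where a share of 0.5 or more of its spots was well above background on 1 array or more. Arrays were quantile normalised and spots averaged. Groups were compared with limma's lmFit and eBayes, two-sided, with Benjamini–Hochberg adjustment over all probes tested and a threshold of 0.05. Exact permutations covered every split of the arrays into equal groups or, for correlations, every pairing. The number of arrays and the signal over background limit the precision. The procedure was tested on simulated data.

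Accessions were named through RefSeq tables of the assembly GRCr8, which also gave the sequences. The brightest probe stood for a gene, except that a gene compared with a member over the arrays was taken by its closest probe. Named were every probe of the 9 genes, at most 4 genes of each further list by p, the genes closest to each member over the arrays, and marker lists of 14 cell types or regions. Besides the dopaminergic, serotonergic and hindbrain lists, 1 of 3 cholinergic genes was higher and 2 of 4 thalamic genes were lower at an unadjusted p under 0.05, and 0 genes of the GABAergic, astrocyte, oligodendrocyte, microglial, endothelial, meningeal, choroid plexus, Schwann cell and hippocampal lists. Among all genes 3.46% were higher and 2.05% lower at that threshold. The genes and lists were chosen with earlier results of these data known. Alternatives changed the scaling, background correction, filter, values, variance model, blocks, probe and arrays used. A gene that these rules select is not reported here.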

Additional observations from a re-analysis of the deposited data

How the results depend on the processing

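No brightest probe of the 9 genes passed the Benjamini–Hochberg adjustment under any alternative, in 101 values from 12 processing alternatives and 72 values with 1 array left out (lowest adjusted p in limma 0.157 and 0.431). Direction and side of the unadjusted threshold were kept in 95 of the 101 and 60 of the 72. The count of all probes past the adjustment, 5, was 10 with array weights and 3 with the side of the slide as a block. It was 3 to 5 with 1 array left out, and 3 without any 1 AAV-Null array. The count of neurotrophic probes at an unadjusted p under 0.05, 2, was 1 with normexp, where *Gdnf* lost its call, and 1 with filters of at least 4 or all 8 arrays, where *Gdnf* was not tested. It was 1 to 5 with 1 array left out: 5 without AAV-Null replicate 3, which added both *Ret* probes and *Ngfr*, and 1 without AAV-αSyn replicate 4. With array weights *Ret* was −0.39, *Ngfr* 0.65 and *Gfra2* −0.042 in log2 fold change. *Gdnf* lost and *Ret* and *Ngfr* gained an unadjusted p under 0.05 there, so that 3 neurotrophic probes had one, and 4503 of all probes did. *Gfra2* was −0.0061 as the mean over its probes. With 1 array left out, *Nrtn* was −0.30 to −0.22, *Ret* −0.41 to −0.17, *Gfra1* −0.12 to 0.013, *Gfra2* −0.066 to 0.11, *Bdnf* −0.023 to 0.29, *Ntrk2* 0.11 to 0.19, *Cdnf* 0.062 to 0.92 and *Ngfr* 0.12 to 0.61. For *Gdnf*, below background on every AAV-Null array, no fold can be stated, and the difference of its measured log2 values is only a fitted number: 0.80 with array weights, 0.073 with normexp and 0.74 to 1.29 with 1 array left out. Beyond what fewer arrays or probes bring, the cause was not tested.

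Replicate numbers mark the row of the slide, and same-numbered arrays deviated from their group means with correlations of 0.14, 0.27, 0.041 and −0.0022, so they were not taken as pairs. With the replicate number as a block, 0 of all probes passed the adjustment in limma, while 2218 had an unadjusted p under 0.05. The block left the log2 fold changes as they were (*Nrtn* −0.25, still at an unadjusted p under 0.05), and 3 neurotrophic probes, now with the dimmer *Ret* probe, had an unadjusted p under 0.05.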
